A study of Mus musculus with 8 samples.

Results

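Complement and coagulation genes were examined in the livers of SIRT7 KO mice and WT mice, as the set of 38 genes that encode clotting factors, fibrinogen chains, the contact system, plasminogen, the complement components and lectins and their regulators. The members were the probe sets whose annotation gave exactly 1 of these symbols, and the brightest probe set stood for each gene. By this rule 36 of 38 genes were measured, with 49 probe sets, out of 12393 genes and 22626 probe sets on the array. C3 and Cpb2 were not analysed here. The study hybridised liver RNA of 4 SIRT7 KO mice and of 4 WT mice to Affymetrix mouse expression arrays, 1 array per sample. SIRT7 KO mice lack the histone deacetylase SIRT7 and, as the study describes them, develop steatohepatitis on chow diet. No treatment is named for either genotype. The sources used here give no allele, age, sex, litter or batch for these animals, so a p-value reflects only the variation among these 8 arrays, and their number limits the precision.

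Most plasma clotting factors and complement components are made by hepatocytes and secreted into the blood. Clotting starts when tissue factor meets factor VII, and a chain of serine proteases then leads to thrombin, which cuts fibrinogen to fibrin. Protein C and its cofactor protein S slow this chain, and plasmin removes the clot. Complement is a related protease cascade, started among other ways by mannose-binding lectins, which ends in a pore built from C5 (gene Hc), C6, the 3 chains of C8, and C9. In bulk liver RNA, fewer cells of a type and less RNA per cell cannot be told apart.

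The genotype was visible in the targeted gene, since Sirt7 was between 4.40 and 4.90 on SIRT7 KO arrays and between 8.57 and 8.98 on WT arrays on the log2 scale. Array medians lay between 6.30 and 6.36. The GAPDH control, read as its 3' signal minus its 5' signal, a measure that grows with RNA degradation, averaged 0.11 ± 0.082 in SIRT7 KO and 0.22 ± 0.055 in WT livers (SD, n = 4 each). A two-sided exact permutation test gave p = 0.0286, which no division of 8 arrays into equal groups can undercut, and the part of RNA quality in the results was not tested. Of the 7 hepatocyte markers listed, 5 were measured and 0 were called as different. Their mean log2 level was 14.18 to 14.30 on SIRT7 KO arrays and 14.28 to 14.40 on WT arrays. All 5 had negative differences, with a median of -0.015 and a lowest of -0.27, that of Hnf4a. Albumin, the main plasma protein of hepatocytes, had the smallest, -0.00010 ± 0.055 (SE), near the top of the scale.

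Genes of 4 clotting proteins fell in SIRT7 KO livers. These were F7 (coagulation factor VII), Proc (protein C), Klkb1 (plasma prekallikrein) and F13b (the carrier subunit of the fibrin cross-linking factor XIII). The other 32 measured members did not pass the test. With 4 of 36 members called, all lower, the share over all genes on the array was 4.65% called in either direction, 2.48% lower and 2.17% higher. The test was limma with Benjamini-Hochberg adjustment over all probe sets and a threshold of 0.15, the false discovery rate set in the methods of the study. At an adjusted p under 0.05, 2 members were called, F7 and Proc, where 0.758% of all genes were. At an unadjusted p under 0.05, 13 members were lower, where 8.72% of all genes were, and 3 were higher (F3, F8 and Tfpi), where 6.91% of all genes were. A member that did not pass is not thereby shown to be unchanged.

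The 250 bases before the annotated start of 5 lower genes and of Proz are shown. F7, F10 and Proz were chosen because they stand side by side on mouse chromosome 8, and Klkb1 and F13b because they carry calls. Vtn was chosen because its brightest probe set did not overlap between the genotypes. The sequences are from RefSeq, GRCm38.p6, written 5′ to 3′ in the direction of transcription. Capitals mark the motifs found on either strand, namely the HNF1-type element GTTAAT, the STAT-type site TTCNNNGAA, the C/EBP-type site TTGCNNAA and the DR1-type site CAAAGGTCA, which is bound by HNF4 and related receptors. The letters of the last motif were chosen after the F7 window had been read.
F7, chr8:13025784-13026033, + strand: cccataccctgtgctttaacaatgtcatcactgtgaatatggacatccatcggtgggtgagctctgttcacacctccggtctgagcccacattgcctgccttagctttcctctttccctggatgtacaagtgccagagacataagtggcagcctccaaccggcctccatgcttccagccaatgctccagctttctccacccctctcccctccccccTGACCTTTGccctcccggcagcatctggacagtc
F10, chr8:13037058-13037307, + strand: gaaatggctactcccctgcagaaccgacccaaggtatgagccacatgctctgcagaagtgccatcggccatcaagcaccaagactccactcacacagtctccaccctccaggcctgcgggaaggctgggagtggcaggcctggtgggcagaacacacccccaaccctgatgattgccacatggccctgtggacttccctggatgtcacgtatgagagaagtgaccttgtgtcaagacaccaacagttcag
Proz, chr8:13060658-13060907, + strand: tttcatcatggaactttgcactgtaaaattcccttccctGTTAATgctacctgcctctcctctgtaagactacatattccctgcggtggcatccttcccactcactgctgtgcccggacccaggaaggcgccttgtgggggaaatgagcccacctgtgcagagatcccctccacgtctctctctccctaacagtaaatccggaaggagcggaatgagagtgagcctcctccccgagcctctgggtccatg
Klkb1, chr8:45294836-45295085, - strand: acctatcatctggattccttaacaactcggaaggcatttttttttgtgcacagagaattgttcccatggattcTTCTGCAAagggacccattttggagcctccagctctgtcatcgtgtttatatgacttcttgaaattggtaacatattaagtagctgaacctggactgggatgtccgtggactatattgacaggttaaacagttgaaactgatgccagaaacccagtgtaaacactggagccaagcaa
F13b, chr1:139501457-139501706, + strand: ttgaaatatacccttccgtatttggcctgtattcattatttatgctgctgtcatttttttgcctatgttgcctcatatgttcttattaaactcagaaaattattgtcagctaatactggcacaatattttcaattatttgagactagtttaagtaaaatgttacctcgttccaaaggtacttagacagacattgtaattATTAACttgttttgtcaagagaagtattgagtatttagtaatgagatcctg
Vtn, chr11:78498870-78499119, + strand: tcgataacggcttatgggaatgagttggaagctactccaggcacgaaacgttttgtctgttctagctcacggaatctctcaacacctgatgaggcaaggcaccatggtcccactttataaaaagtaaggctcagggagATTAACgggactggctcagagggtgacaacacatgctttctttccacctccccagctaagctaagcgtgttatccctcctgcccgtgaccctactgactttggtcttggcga

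A promoter window of 300 bases (250 before to 50 after the start) was found for 28 of the 36 measured members. For each member 1 window was kept, the first in the direction of transcription, while the share over all windows counts every window listed. The HNF1-type element was held by 10 of 28 windows (35.7%), against 7.10% of all 32851 windows of the table. The STAT-type site was held by 7 of 28 (25.0%), against 8.30% of all windows, and the C/EBP-type site by 6 of 28 (21.4%), against 10.8%. The DR1-type site was held by F7 and F9 only, 2 of 28 members, against 0.478% of all windows, and in F7 it begins 34 bases before the start. Its letters came from reading the F7 window, so F7 holds it by that choice and these shares cannot be compared. The fibrinogen genes Fga and Fgb held the first 3 of these motifs in their windows. Of the 7 members with a window that were lower without overlap, 3 held the HNF1-type element, 1 the STAT-type site and 1 the C/EBP-type site. The DR1-type site was held by 1, F7 itself. Binding was not measured.

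F7, the serine protease that tissue factor switches on at the start of clotting, had log2 levels of 9.94, 10.14, 10.46 and 10.30 on the 4 SIRT7 KO arrays, against 10.76, 10.96, 10.90 and 10.82 on the 4 WT arrays. All 4 SIRT7 KO arrays lay below all 4 WT arrays. The difference was -0.65 ± 0.11 (SE, n = 4 per group, limma adjusted p = 0.0433), which left 63.7% of the WT level. F7 was called in each of the 8 fits that left out 1 array (highest adjusted p 0.113), and it was also called, at -0.49 (adjusted p = 0.113), when SIRT7 KO arrays 1 and 2 were both left out.

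Neither the partner of factor VII nor its inhibitor passed the test. F3, which encodes tissue factor, had 5.69, 5.96, 6.02 and 6.62 on SIRT7 KO arrays, against 6.05, 5.47, 5.28 and 4.55 on WT arrays. The groups overlapped, and the difference of 0.74 ± 0.30 (SE), the largest in size among the members, did not pass (limma adjusted p = 0.289). All WT values, and all SIRT7 KO values except 6.62, lay below the median of all probe sets (6.35). Tfpi, the inhibitor of the tissue factor and factor VII complex, had 7.88, 7.88, 7.98 and 7.85 on SIRT7 KO arrays, against 7.69, 7.68, 7.67 and 7.73 on WT arrays. Each SIRT7 KO value was higher than each WT value, but the difference of 0.20 ± 0.060 (SE) missed the threshold (adjusted p = 0.161). A further probe set of Tfpi also did not overlap (0.44 ± 0.14 SE, adjusted p = 0.178), while the remaining one did overlap (0.099 ± 0.090 SE).

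**Figure D1:**
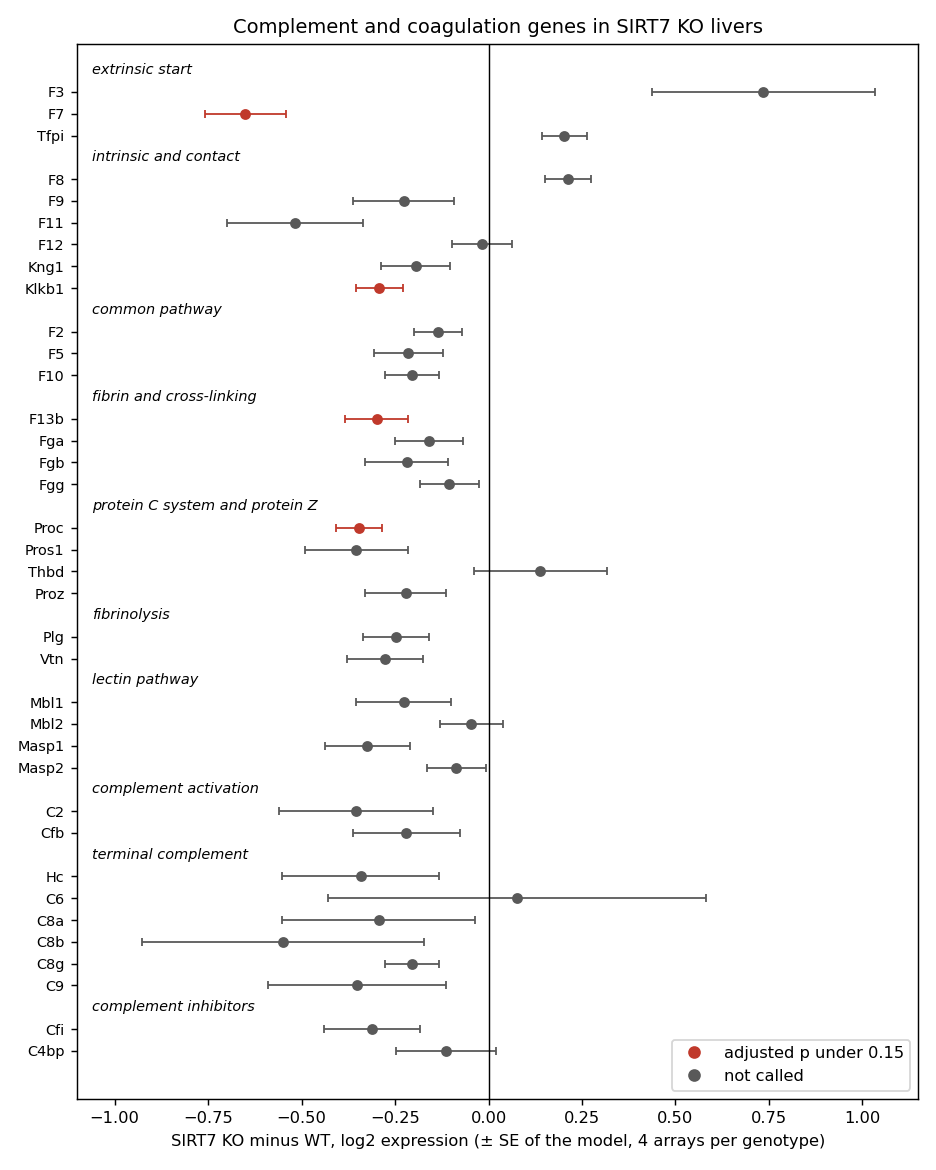
Difference in log2 expression, SIRT7 KO minus WT (horizontal axis), for the 36 measured genes by role (vertical axis), with the SE of the model over 4 arrays per genotype. The 4 called genes in red all lie below 0, F7 lies furthest at -0.65, and F3, F8, Tfpi, Thbd and C6 are the 5 genes above 0.

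Among the intrinsic and contact factors, prekallikrein fell. Klkb1, whose product cuts kininogen and activates factor XII, had 12.26, 12.21, 12.30 and 12.17 on SIRT7 KO arrays, against 12.59, 12.47, 12.51 and 12.55 on WT arrays. The groups did not overlap and the difference was -0.29 ± 0.062 (SE, limma adjusted p = 0.0747), or 81.7% of the WT level. The call was lost without SIRT7 KO array 2 (adjusted p = 0.161), SIRT7 KO array 4 (0.192) or WT array 1 (0.198), while the difference stayed between -0.32 and -0.27 in the 8 fits that left out 1 array. Its neighbour on chromosome 8, F11 (factor XI, a protease that activates factor IX), had 9.61, 9.19, 10.01 and 9.68 on SIRT7 KO arrays, against 10.14, 9.96, 9.94 and 10.51 on WT arrays. These groups overlapped through SIRT7 KO array 3, and the difference of -0.52 ± 0.18 (SE) did not pass (adjusted p = 0.223).

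The other hepatocyte genes of this branch did not pass. Kng1, the kininogen that prekallikrein cuts, differed by -0.19 ± 0.092 (SE, adjusted p = 0.369), and a further probe set without overlap by -0.24 ± 0.077 (adjusted p = 0.194). F9 (factor IX) differed by -0.23 ± 0.14 (adjusted p = 0.491) and F12 (factor XII) by -0.018 ± 0.080 (adjusted p = 0.947), with a 95% interval of -0.20 to 0.16. F8 ran the other way. Factor VIII, its product, is the cofactor of factor IX and is made in liver chiefly by sinusoidal endothelial cells, and the gene had 8.62, 8.68, 8.62 and 8.68 on SIRT7 KO arrays, against 8.42, 8.51, 8.36 and 8.47 on WT arrays. The genotypes did not overlap, and the difference of 0.21 ± 0.062 (SE) was just outside the threshold (adjusted p = 0.155).

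In the common pathway, F2 (prothrombin), F5 (factor V, the cofactor of factor X) and F10 (factor X) all lay lower without overlap, as 5.70% of all genes did. By the brightest probe set 0 of 3 passed. F2 had 13.69, 13.59, 13.79 and 13.76 on SIRT7 KO arrays, against 13.81, 13.86, 13.84 and 13.86 on WT arrays, a difference of -0.14 ± 0.065 (SE, adjusted p = 0.377). The highest SIRT7 KO value of prothrombin, 13.79, lay close under the lowest WT value, 13.81. F10 had 11.81, 11.74, 11.92 and 11.88 on SIRT7 KO arrays, against 11.93, 12.08, 12.15 and 12.01 on WT arrays (-0.21 ± 0.073 SE, adjusted p = 0.23), and both further probe sets of F10 had the same sign (-0.28, adjusted p = 0.214, and -0.32, adjusted p = 0.217).

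F5 gave different calls by probe set. The brightest had 11.73, 11.54, 11.89 and 11.91 on SIRT7 KO arrays, against 11.96, 12.08, 11.92 and 11.98 on WT arrays (-0.21 ± 0.092 SE, adjusted p = 0.318). The other had 11.45, 11.25, 11.51 and 11.45 on SIRT7 KO arrays, against 11.74, 11.82, 11.65 and 11.72 on WT arrays, and fell by 0.32 on the log2 scale (SE 0.076, adjusted p = 0.10). Both were without overlap, and the second was the only further probe set of a member that passed.

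**Figure D2:**
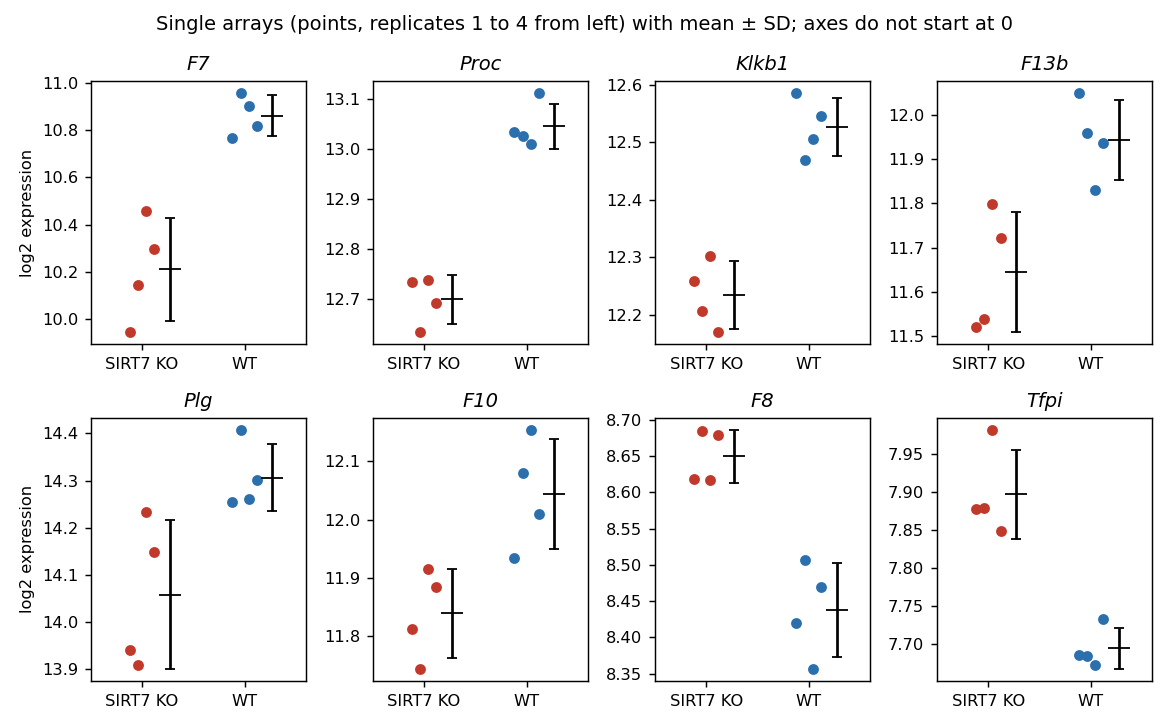
Log2 expression (vertical axes, which do not start at 0) on each SIRT7 KO array (red, left) and WT array (blue, right), with mean ± SD, n = 4 each. The genotypes do not overlap for any of these 8 genes, F7, Proc, Klkb1, F13b, Plg and F10 being lower and F8 and Tfpi higher in SIRT7 KO livers.

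Of the fibrin genes, F13b fell and the fibrinogen chains did not pass. F13b had 11.52, 11.54, 11.80 and 11.72 on SIRT7 KO arrays, against 12.05, 11.96, 11.83 and 11.94 on WT arrays. The difference was -0.30 ± 0.085 (SE, adjusted p = 0.146), or 81.3% of the WT level, close to the threshold. Of the 8 fits that left out 1 array, F13b passed in 1 (the one lacking SIRT7 KO array 3), and the highest adjusted p was 0.309. Fga, Fgb and Fgg, the 3 chains of fibrinogen, had differences of -0.16 ± 0.090, -0.22 ± 0.11 and -0.10 ± 0.079 (SE), with adjusted p between 0.411 and 0.60. Their values ran from 13.85 to 14.70 on SIRT7 KO arrays and from 14.09 to 14.79 on WT arrays, near the highest value of the table (15.36).

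Protein C, which when active destroys factors V and VIII and so limits clotting, varied little within either genotype. Proc had 12.73, 12.63, 12.74 and 12.69 on SIRT7 KO arrays, against 13.03, 13.03, 13.01 and 13.11 on WT arrays. The groups lay well apart, and the difference was -0.35 ± 0.060 (SE, limma adjusted p = 0.0476), or 78.6% of the WT level. It was called in each of the 8 fits that left out 1 array (highest adjusted p 0.134), and it missed the threshold without SIRT7 KO arrays 1 and 2 together (-0.33, adjusted p = 0.155). Pros1, the cofactor protein S, had a difference of the same size but a wider spread, with 9.17, 9.01, 9.37 and 9.61 on SIRT7 KO arrays, against 9.49, 9.88, 9.52 and 9.68 on WT arrays (-0.35 ± 0.14 SE, adjusted p = 0.271). Proz, the vitamin K-dependent protein Z, differed by -0.22 ± 0.11 (SE, adjusted p = 0.381).

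Thbd, the endothelial receptor thrombomodulin that turns thrombin towards protein C, had 5.70, 5.78, 5.71 and 6.52 on SIRT7 KO arrays, against 5.67, 5.89, 5.64 and 5.94 on WT arrays. The difference of 0.14 (adjusted p = 0.782) rested on SIRT7 KO array 4 and was -0.059 without it. All 7 members that need vitamin K to bind calcium (F2, F7, F9, F10, Proc, Pros1 and Proz, grouped after their values were seen) had negative differences, between -0.65 and -0.14. Of all 36 members, 31 had negative differences in any case. Among the 7, 2 were called lower, where 2.48% of all genes were. Of 3 measured genes of the vitamin K cycle, 0 passed. Ggcx, the carboxylase that performs this modification, lay between 7.55 and 7.84 on SIRT7 KO arrays and between 7.89 and 8.19 on WT arrays, without overlap and without passing (-0.25 ± 0.094 SE, adjusted p = 0.253). Vkorc1, which recycles vitamin K, likewise did not overlap or pass (-0.13 ± 0.061 SE, adjusted p = 0.385).

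By the brightest probe set, the 2 measured genes of fibrinolysis were lower without overlap, as 5.70% of all genes were. Plg, the precursor of plasmin, had 13.94, 13.91, 14.23 and 14.15 on SIRT7 KO arrays, against 14.25, 14.41, 14.26 and 14.30 on WT arrays (-0.25 ± 0.088 SE, adjusted p = 0.23). Vtn encodes vitronectin, which stabilises the plasminogen activator inhibitor and also blocks the complement pore. It had 13.46, 13.48, 13.76 and 13.77 on SIRT7 KO arrays, against 13.78, 14.08, 13.84 and 13.88 on WT arrays (-0.28 ± 0.10 SE, adjusted p = 0.241). The genotypes overlapped in the further probe set of Vtn (-0.27 ± 0.17 SE, adjusted p = 0.506). For both genes SIRT7 KO arrays 1 and 2 were the lowest and arrays 3 and 4 lay nearer to the WT arrays.

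No complement gene passed in either direction, with 0 called of 4 lectin pathway genes, 2 of activation, 6 of the terminal pathway and 2 inhibitors. In the lectin pathway, Mbl1 and Mbl2, which recognise microbial sugars, differed by -0.23 ± 0.13 and -0.046 ± 0.084 (SE), and their proteases Masp1 and Masp2 by -0.32 ± 0.11 and -0.086 ± 0.080. The lowest adjusted p of these was that of Masp1 (0.224). Masp1 makes several proteins from 1 gene. Its 4 further probe sets differed by -0.13, 0.028, 0.013 and 0.085, and none passed. The probe sets at 0.013 and 0.085 were dim, below the median of all probe sets (6.35). Their means were 5.89 and 4.26 on SIRT7 KO arrays and 5.88 and 4.17 on WT arrays. C2, the serine protease of the classical and lectin convertase, had 9.36, 9.34, 10.20 and 9.92 on SIRT7 KO arrays, against 9.90, 10.24, 9.80 and 10.30 on WT arrays (-0.35 ± 0.21 SE, adjusted p = 0.478). Its neighbour Cfb, the matching protease of the alternative pathway, differed by -0.22 ± 0.14 (adjusted p = 0.541). The inhibitors Cfi and C4bp, which break down and displace the convertases, differed by -0.31 ± 0.13 (adjusted p = 0.301) and -0.11 ± 0.13 (adjusted p = 0.759).

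**Figure D3:**
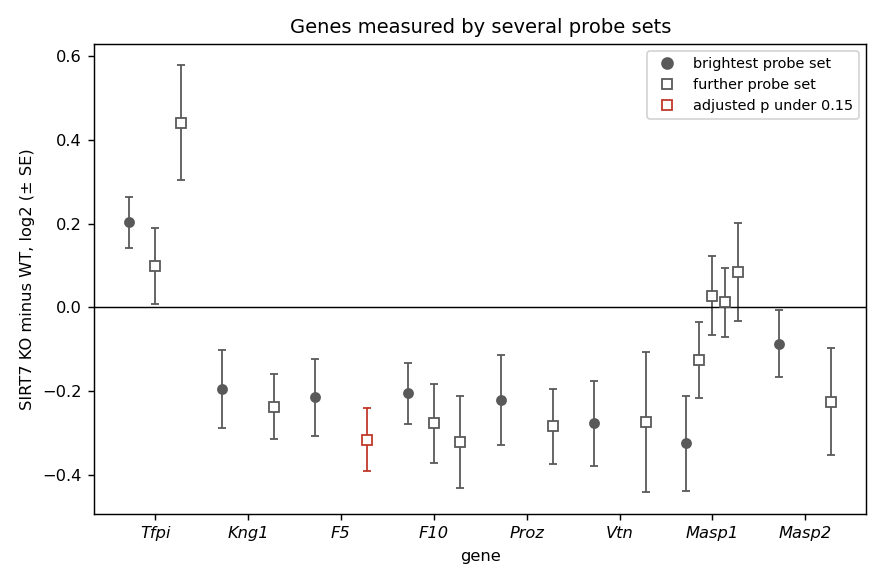
Difference in log2 expression, SIRT7 KO minus WT (vertical axis, ± SE, 4 arrays per genotype), of every probe set of the 8 genes with more than 1 (horizontal axis). The probe sets shared their sign for 7 genes, the second of F5 passed at -0.32, and 3 further probe sets of Masp1 lay at or above 0.013.

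Apart from C8g, the terminal complement genes had a log2 range among the SIRT7 KO arrays that was wider than the difference between the genotype means. This was not particular to them. C2 (range 0.87, difference -0.35) and Fga (range 0.35, difference -0.16) were other members for which it held. C6 had 9.36, 10.20, 11.49 and 11.40 on SIRT7 KO arrays, against 10.05, 10.36, 10.14 and 11.61 on WT arrays, a range of 4.40-fold within SIRT7 KO. C8b had 9.95, 10.12, 11.43 and 11.33 on SIRT7 KO arrays, against 11.02, 11.29, 10.78 and 11.94 on WT arrays, with a range of 2.80-fold within SIRT7 KO. On both genes SIRT7 KO arrays 1 and 2 were the lowest of the group and WT array 4 the highest of all. C9, the pore-forming component, had 12.66, 13.27, 13.77 and 13.76 on SIRT7 KO arrays, against 13.51, 13.84, 13.50 and 14.01 on WT arrays. Hc ran from 12.69 to 13.58 on SIRT7 KO arrays and from 13.20 to 13.78 on WT arrays, and C8a from 12.52 to 13.64 on SIRT7 KO arrays and from 13.13 to 13.73 on WT arrays.

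For these 5 genes the differences were 0.075 ± 0.51 for C6, -0.55 ± 0.38 for C8b, -0.35 ± 0.24 for C9, -0.34 ± 0.21 for Hc and -0.29 ± 0.26 for C8a (SE), with adjusted p between 0.511 and 0.965. For C8b the 95% interval of -1.40 to 0.30 covers differences of either sign. C8g, the lipocalin-like chain of C8, was even by contrast, with 13.18, 13.33, 13.38 and 13.24 on SIRT7 KO arrays, against 13.53, 13.38, 13.50 and 13.54 on WT arrays (-0.20 ± 0.072 SE, adjusted p = 0.226).

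**Figure D4:**
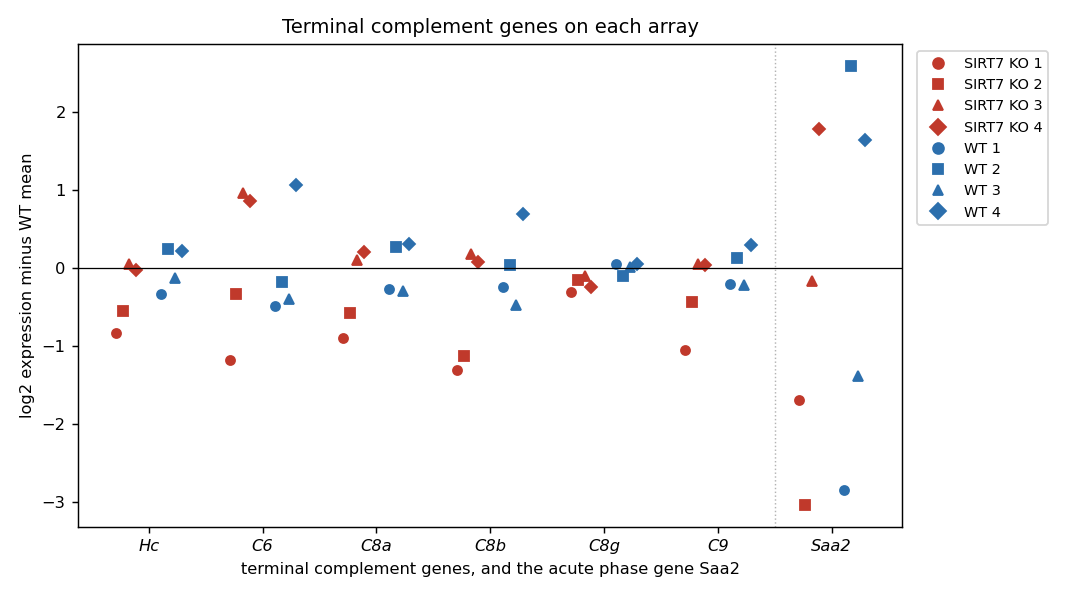
Log2 expression minus the WT mean of the gene (vertical axis) for the terminal complement genes and Saa2 (horizontal axis), with SIRT7 KO arrays in red on the left and WT arrays in blue on the right, and marker shapes for replicates 1 to 4. SIRT7 KO arrays 1 and 2 lie below arrays 3 and 4 for Hc, C6, C8a, C8b, C9 and Saa2, and C8g spans 0.20 within SIRT7 KO.

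Acute phase genes are switched on in hepatocytes by inflammation. Saa2, which encodes a serum amyloid A protein, had 10.22, 8.87, 11.75 and 13.70 on SIRT7 KO arrays, against 9.06, 14.51, 10.53 and 13.56 on WT arrays. Its highest arrays were SIRT7 KO array 4 and, within WT, arrays 2 and 4. WT arrays 2 and 4 were likewise the highest of their group for Hc, C6, C8a, C8b and C9. The mean of the 22 acute phase genes was 10.36 to 11.86 on SIRT7 KO arrays and 10.70 to 12.37 on WT arrays. Of these genes 0 rose and 1 fell, the IL-6 receptor gene Il6ra (-1.15 ± 0.21 SE, adjusted p = 0.0511), while 20 of 22 had negative differences, with a median of -0.35. The 4 neutrophil markers all had negative differences, with a median of -0.95 and 0 called, and their mean level was 5.19 to 8.55 on SIRT7 KO arrays and 5.37 to 9.28 on WT arrays. The part of inflammation in the complement values was not tested.

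Taken over the 36 genes, 31 had a negative difference, beside 50.7% of all genes, and their median difference was -0.22, beside -0.0031 over all genes. Lower levels without overlap between the genotypes were found for 9 members (F2, F5, F7, F10, F13b, Klkb1, Plg, Proc and Vtn), where 5.70% of all genes were so, and higher levels without overlap for 2 (F8 and Tfpi), where 4.10% of all genes were so. The same 8 arrays measured all of these genes, so they are not independent of each other.

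**Figure D5:**
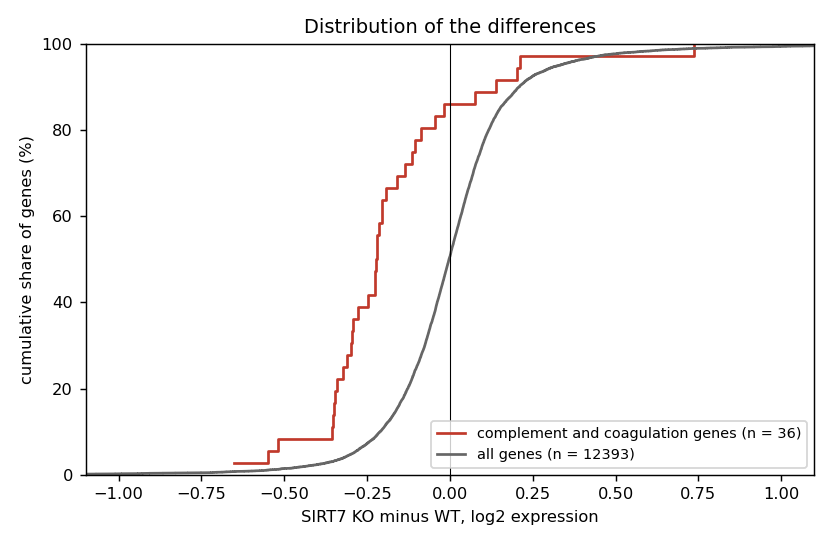
Cumulative share of genes (vertical axis, %) by difference in log2 expression, SIRT7 KO minus WT (horizontal axis, limited to -1.1 to 1.1), for the 36 complement and coagulation genes in red and all 12393 genes in grey. The median of the 36 genes lies at -0.22 and that of all genes at -0.0031.

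The lower levels were most marked on 2 arrays. SIRT7 KO array 1 was the lowest of its group for 20 of 36 members and array 2 for 13. Over all genes, each SIRT7 KO array was the lowest for 23.4% to 27.2%. The WT group was similarly divided, with array 1 the lowest for 15 members and array 3 for 16. A concentration of the lowest values on 2 arrays was thus not particular to the SIRT7 KO livers. Array by array, the median of the members relative to their WT means was -0.34, -0.36, -0.079 and -0.072 on SIRT7 KO arrays 1 to 4, against -0.084, 0.097, -0.060 and 0.038 on WT arrays 1 to 4. SIRT7 KO arrays 3 and 4 thus lay within the range of the WT arrays. Without SIRT7 KO arrays 1 and 2, a choice made after these values were seen, the median difference was -0.060 and only F7 remained called. The SIRT7 KO arrays were also more uneven, the SD within SIRT7 KO being above that within WT for 29 of 36 members, with a median SD of 0.178 in SIRT7 KO and 0.125 in WT, beside 0.122 in SIRT7 KO and 0.129 in WT over all genes.

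F3, F8, Tfpi and Thbd, which are best known from vascular and perivascular cells, had differences of 0.14 to 0.74, and the other 32 members had 31 negative differences and 1 positive one, that of C6. This division was drawn after the values were seen and carries no test, and 0 of the 4 genes passed. Of 8 markers of sinusoidal endothelium, Lyve1 rose (1.21 ± 0.21 SE, adjusted p = 0.0463) and 0 fell, and 4 of 8 had positive differences. Their mean level was 8.09 to 8.29 on SIRT7 KO arrays and 8.02 to 8.15 on WT arrays. Stab2 and Kdr, defining receptors of these cells, differed by -0.13 ± 0.082 and -0.088 ± 0.060. Of 6 stellate cell markers, Dcn (0.41 ± 0.10 SE, adjusted p = 0.103) and Acta2 (0.61 ± 0.16 SE, adjusted p = 0.128) rose, with a mean of 8.38 to 8.82 on SIRT7 KO and 8.12 to 8.35 on WT arrays. Of 8 measured macrophage markers 0 were called and 8 had positive differences, with a median of 0.23 and a highest of 0.66, and their mean level was 9.19 to 10.07 on SIRT7 KO arrays and 8.91 to 9.92 on WT arrays. The part of cell composition in these values was not tested.

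In the gene order of GRCm38.p6, 7 pairs of members are direct neighbours among protein-coding genes, namely Cfb and C2, Fgg and Fga, Fga and Fgb, C8b and C8a, F7 and F10, F10 and Proz, and F11 and Klkb1. Both genes of each of these 7 pairs had negative differences, as 31 of 36 members did in any case. The 5 members on chromosome 8, grouped after their values were seen, differed by -0.65 to -0.21, and the 2 called among them are F7 and Klkb1, where 2.48% of all genes were called lower.

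Of 45 measured genes of the wider complement, clotting and fibrinolysis system (58 listed), 0 were called, 10 passed an unadjusted p of 0.05 (3 higher and 7 lower), and 20 had positive and 25 negative differences. Over all genes, 4.65% were called, and at that unadjusted p 6.91% were higher and 8.72% lower. The median was -0.073. The 4 with the smallest p were Cd46, a regulator that protects cells from complement (0.24 ± 0.071 SE, adjusted p = 0.159), C3ar1, the receptor of the C3a fragment (0.38 ± 0.12, adjusted p = 0.179), Serpind1, the thrombin inhibitor heparin cofactor II (-0.29 ± 0.092, adjusted p = 0.192), and F2r, the thrombin receptor (0.66 ± 0.22, adjusted p = 0.202). Cd46 lay between 5.39 and 5.59 on SIRT7 KO arrays and between 5.15 and 5.31 on WT arrays, below the median of all probe sets.

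Of 16 measured transcription factors that act in hepatocytes, 2 fell, namely Foxa3 (-0.72 ± 0.16 SE, adjusted p = 0.0757) and Nr1i3, the nuclear receptor CAR (-0.52 ± 0.14 SE, adjusted p = 0.142). Among all 16, 9 had negative and 7 positive differences, with a median of -0.036 and a highest of 0.81. Foxa3 lay between 9.35 and 10.01 on SIRT7 KO arrays and between 10.08 and 10.60 on WT arrays. Hnf4a, which binds sites of the DR1 type, lay between 11.92 and 12.21 on SIRT7 KO arrays and between 12.17 and 12.65 on WT arrays (-0.27 ± 0.11 SE, adjusted p = 0.305), and Cebpa, which binds C/EBP sites, differed by -0.28 ± 0.096 (adjusted p = 0.22). Neither passed. Cebpb, the gene of a further C/EBP factor, ran the other way, with a difference of 0.33. Whether these factors acted on the clotting and complement genes was not tested.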

How the data were processed

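Liver RNA of 4 SIRT7 KO and 4 WT mice was hybridised to Affymetrix mouse arrays. The authors deposited log2 expression values per probe set, background corrected and normalised between arrays, by RMA according to the study's methods and by GCRMA according to the submitters' processing notes. Which of them made these values cannot be told from the values, and the sources used here do not give the software versions. Either method can move low values. No fold was formed between different probe sets, whose levels served only to choose the brightest of a gene and to place values against the median and the top of the table. Scanner intensities were not used here. The table held 22690 rows, of which 64 control probe sets were left out and 22626 were tested. Gene symbols were taken from the annotation of the array platform, which can be old. It gave 20380 probe sets 1 symbol, 691 several and 1555 none, and genes were named only from the first kind.

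SIRT7 KO was compared with WT with limma (version 3.58.1, R 4.3.3), in a model of genotype alone that was tested on simulated data. Its p-values are two-sided and were adjusted over all probe sets after Benjamini and Hochberg. A call is an adjusted p under 0.15. No pair of arrays was identical. Members were given in full if any of their probe sets was called, if the genotypes did not overlap, or if they were among the 5 largest differences, and other pathway genes if called or among the 4 smallest p. Genes of the vitamin K, acute phase, regulator and marker lists were picked for naming after their values were seen. The members and lists were chosen with earlier results of these data known. Alternatives were other variance and array weightings, normalisations, level filters, probe set choices, a stricter threshold, a replicate block and leaving out arrays. C3 and Cpb2 had no probe set with that symbol alone in the annotation used.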

Additional observations from a re-analysis of the deposited data

Results flagged for a closer look

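Thbd, which encodes thrombomodulin, stood out on SIRT7 KO array 4, where its log2 level was 6.517 while the other 3 SIRT7 KO arrays lay between 5.70 and 5.78. The gap was 0.905 of the range of the group, above the critical value of 0.829 for 4 samples. Of 72 groups of 4 arrays examined in this way 1 was picked out, and chance alone picks out about 5% of groups. The cause was not tested.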

How the results depend on the processing

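The 4 calls, all lower, became 2 at an adjusted p under 0.05 and 7 (5 lower, 2 higher) over probe sets above the median level. F8 and Tfpi were the 2 members called higher in that setting, with array quality weights, with quantile normalisation and with the mean over probe sets. Leaving out 1 array gave 2 to 4 calls, all lower, and a median difference of -0.268 to -0.173. Without SIRT7 KO arrays 1 and 2, chosen after seeing the data, 1 call was left and the median difference was -0.06. Other pathway genes, with 0 called, had 1 with array weights and above the median level, 2 with the highest interquartile range, 3 with the mean over probe sets, 3 without SIRT7 KO arrays 1 and 2, and 0 to 1 when 1 array was left out (1 without SIRT7 KO array 3). Same-numbered arrays did not deviate together (correlations of 0.255, -0.252, -0.163 and 0.145). With litter and batch not given, this cannot settle whether the numbers pair the mice. With the replicate number as a block, 2 members (both lower) and 2 other pathway genes were called. Klkb1 (limma adjusted p = 0.165) and F13b (0.27) lost their calls in that fit.

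Signs turned only for differences that were not called. When 1 array was left out, F12 ranged from -0.0735 to 0.0163, C6 from -0.219 to 0.494 and Thbd from -0.0587 to 0.214. F12 was 0.00753, 0.0163 and 0.015 without SIRT7 KO array 1, SIRT7 KO array 2 or WT array 2. C6 was -0.219, -0.188, -0.0878 and -0.0576 without SIRT7 KO array 3, SIRT7 KO array 4, WT array 1 or WT array 3, and Thbd was -0.0587 without SIRT7 KO array 4. Without SIRT7 KO arrays 1 and 2, F12 was 0.071, Fgg 0.00118, C2 0.00207, Hc 0.0128, C8a 0.156, C8b 0.122, C9 0.0455 and C4bp 0.12. The causes were not tested.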
